A study of Homo sapiens with 2 samples.

Results

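PD-L1 and 9 further surface ligands by which a tumour cell meets T cells, natural killer cells and macrophages were followed in RNA sequencing of a PARP inhibitor resistant cell line and its parent. The 10 genes were CD274, PDCD1LG2, CD276, VTCN1, PVR, NECTIN2, MICA, MICB, ULBP2 and CD47, out of 31845 genes in the count table. They were listed by name and matched by symbol to Ensembl identifiers, with the counts of both libraries in view, so their ratios are given as a description and without a test. Of the 10, 9 had a row in the table, and all 9 reached 50 counts in at least 1 library. PDCD1LG2 had no row and was taken as 0 in both libraries.

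The cells were Capan-1, an established line from a pancreatic adenocarcinoma that carries a mutant BRCA2 gene, although the cell type field of the labels reads breast cancer. One library came from the parental line, labelled as control, and 1 from a derivative that had been taken through stepwise rising olaparib, first at 15 nM and last at 128 uM. Olaparib inhibits PARP enzymes, which take part in DNA break repair. With 1 library in each group, and no statement of whether the derivative is a single clone or was under drug at harvest, every difference describes these 2 libraries and no p-value can be given. The columns that carry the parental name were read as parental and the remaining columns as resistant, and all directions depend on that reading.

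The parental library held 34572931 counts and the resistant library 34507480. BRCA2, whose amplification the series title names, had 1381 and 7585 counts in the parental and resistant library, a 5.53-fold higher level (interval 5.22 to 5.86). Epithelial genes were strongly counted in both libraries, but the listed epithelial and duct markers did not all go 1 way. EPCAM, an epithelial adhesion protein, had 43076 parental and 76990 resistant counts, and KRT19, a duct keratin, 40864 and 51896. Of the 10 markers, 9 reached 50 counts, of which 2 were at least 2-fold lower, 0 higher and 7 within 2-fold. The lower genes were CFTR, with 8946 and 2563 counts, and MUC1, with 3572 and 1399. SOX9 had 2882 and 1717 counts, a fold of 0.600, and CLDN4 only 10 and 28. Leukocyte markers and receptors were near absent. Of 19 such genes, 16 had a row and 15 of those stayed under 50 counts. Among the 15 were PTPRC, the common leukocyte antigen, with 7 and 19 counts and CD3E with 1 in each. CSF1R, with 7 parental and 47 resistant counts, and ITGAM, with 23 and 5, went opposite ways. CD68, a lysosomal protein that is not restricted to macrophages, made up 351 of the 455 parental and 582 of the 681 resistant counts of this list. At 0 were CD4, PDCD1 and TIGIT in the parental library and CD3D, CD8A, CD14, CD96 and CD226 in the resistant library. In bulk RNA, fewer expressing cells and less RNA per cell cannot be told apart.

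These ligands work in opposing ways. PD-L1 and PD-L2, the products of CD274 and PDCD1LG2, bind PD-1 and restrain T cells, and the related B7 proteins B7-H3 (CD276) and B7-H4 (VTCN1) are also known mainly as inhibitory. PVR and NECTIN2 bind the inhibitory receptor TIGIT and the activating receptor CD226. MICA, MICB and ULBP2 are stress-induced ligands of NKG2D, an activating receptor of natural killer cells and some T cells. CD47 binds SIRPA on macrophages and holds back engulfment. Transcription of CD274 is classically induced by interferon gamma through JAK kinases and IRF1.

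The ligands did not shift as a block. Among the 9 genes with a row, the resistant library had CD274 at least 2-fold higher, VTCN1 and CD47 at least 2-fold lower, and 6 within 2-fold. Across all 15102 genes with at least 50 counts in the higher library, 15.0% differed at least 2-fold, 6.0% being higher and 8.95% lower. Because the ligands were chosen on this same contrast, nothing is read from their count against that background. The same shares, 6.0% higher and 8.95% lower, are the background for the counts of called genes in every list below. Those counts were not tested against it. At a size of 1.5-fold, 4 of the 9 (CD274, PVR, MICB and ULBP2) were higher and 2 were lower, beside 16.8% and 21.2% of all genes, or 38.1% in either direction. The median log2 ratio of the 9 was 0.40, beside 0.06 for all genes, with 6 of the 9 above 0. Log2 ratios here are resistant over parental after scaling of the counts, with 1 count added to each library, and the 2-fold size was applied to them. Folds are scaled count ratios with an exact conditional 95% interval that covers counting error only.

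**Figure D1:**
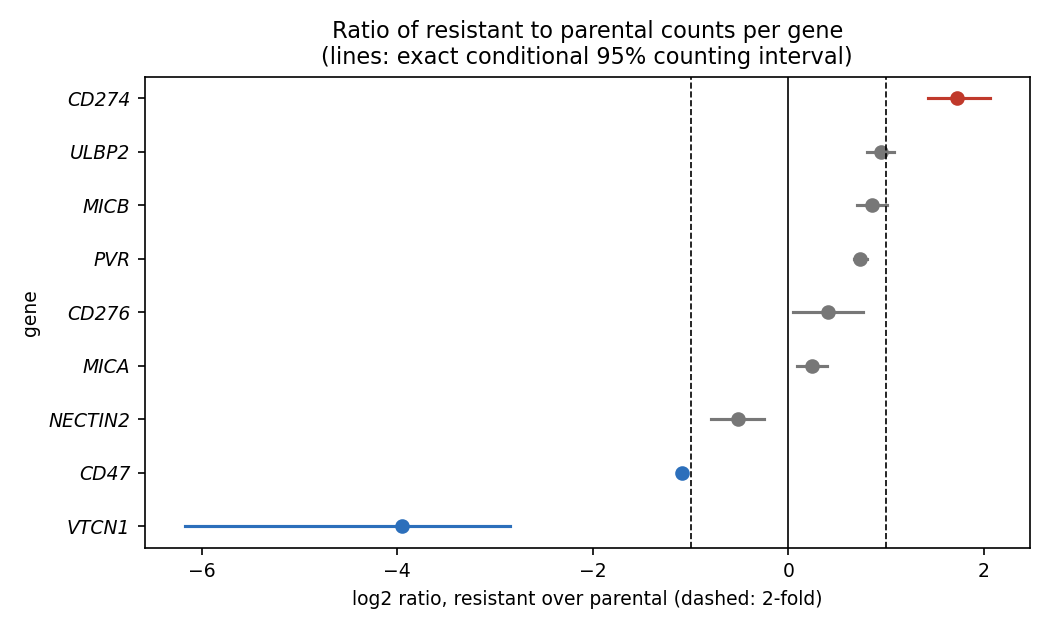
Log2 ratio of resistant over parental counts (x axis) for the 9 ligand genes with a row (y axis), with exact conditional 95% counting intervals as lines and 2-fold as dashed lines. CD274 lies to the right of the upper 2-fold line at 1.73, CD47 and VTCN1 lie to the left of the lower one at -1.09 and -3.95, and the other 6 lie between.

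CD274, which encodes PD-L1, had 110 parental and 364 resistant counts. The resistant count was 3.33-fold higher (interval 2.68 to 4.16). Its log2 ratio of 1.73 exceeded those of 97.8% of genes with at least 50 counts in the higher library. Even so the transcript remained sparse. Its deposited FPKM value, a level per length, was 0.371 in parental cells and 1.28 in resistant cells. These values were above 6.38% and 24.2% of the genes with at least 50 counts, weaker genes being left out of both shares. No 50-base stretch of its GENCODE transcripts recurred in transcripts of another gene, so its counts do not depend on how shared reads were divided, as far as that annotation goes.

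The 250 bases before the RefSeq start of CD274 (GRCh38.p14, chr9:5450292-5450541, plus strand) are shown because its promoter carries paired interferon response half-sites. Capitals mark TTTC, any 2 bases, then TTTC again, searched on both strands, so that the reverse form is GAAA, any 2 bases, GAAA. Its matches begin 208 and 202 bases before the start and overlap each other.

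CD274: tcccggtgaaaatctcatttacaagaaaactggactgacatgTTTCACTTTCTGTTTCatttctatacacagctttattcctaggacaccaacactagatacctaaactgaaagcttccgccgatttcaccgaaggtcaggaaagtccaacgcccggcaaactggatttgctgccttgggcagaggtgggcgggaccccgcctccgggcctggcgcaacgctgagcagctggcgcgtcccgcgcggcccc

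Of 34943 RefSeq promoter windows of this length, 3.02% hold this pattern on either strand. Among the 9 ligands with a promoter entry, CD274 was the 1 gene that did. A match describes the letters and does not show that a factor binds there.

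By scaled counts no listed regulator of CD274 transcription was past 2-fold higher, where 6.0% of all genes were, but some came near. RELA had 68 parental and 133 resistant counts, a fold of 1.97 (interval 1.46 to 2.68). Its FPKM values of 1.016 and 2.073 were just past 2-fold apart. NLRC5 had 31 and 59 counts, a fold of 1.92 (interval 1.22 to 3.06). Of 20 listed genes of interferon gamma signalling and PD-L1 transcription, 19 reached 50 counts, of which 0 were at least 2-fold higher, 2 were lower and 17 lay within 2-fold. Their median log2 ratio was -0.35. JAK2, the kinase that pairs with the interferon gamma receptor, had 6358 parental and 2853 resistant counts, 2.21-fold lower. STAT2, which transmits type I interferon signals, had 1570 and 770 counts, 2.03-fold lower. With the trend of ratios with gene length removed, JAK2 at -0.98 and STAT2 at -0.85 on the log2 scale lay inside the 2-fold size, as STAT2 did with upper quartile scaling and by FPKM. IRF1, the factor that acts on the CD274 promoter, had 152 and 102 counts, a fold of 0.676 (interval 0.520 to 0.874). SOCS1, a feedback inhibitor of JAK kinases, had 8 and 0 counts, too few to compare. Within these libraries CD274 and JAK2 therefore differed in opposite directions, and the fold of CD274 was 7.37 times that of JAK2 (interval 5.91 to 9.25).

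Most listed genes that act on the PD-L1 protein lay within 2-fold, as did most genes, 15.0% of all 15102 differing at least 2-fold. Inside that size their folds ran from 0.631 for GSK3B to 1.60 for STT3A. Of 16 listed genes of PD-L1 stability and glycosylation, 15 lay within 2-fold, 1 was lower and 0 were higher, with a median log2 ratio of 0.28. The lower gene was ZDHHC3, a palmitoyltransferase, with 256 parental and 117 resistant counts, and it lay inside 2-fold at -0.94 with the length trend removed. CMTM6, which protects PD-L1 from lysosomal breakdown, had 3263 and 2505 counts, a fold of 0.773. A list of nucleic acid sensing genes held DNA sensors and their signalling genes, the RNA sensors RIGI and IFIH1, their adaptor MAVS and the chemokine CXCL10. Of its 14 genes, IKBKE, CCL5 and IFNB1 had no row, so nothing is known of them here. The 11 genes with a row were within 2-fold, with a median log2 ratio of 0.10, which is the value of RIGI. CGAS, the main sensor of cytosolic DNA, had 2459 parental and 3155 resistant counts, a fold of 1.29, and its adaptor gene STING1 had 552 and 451, a fold of 0.822. IFI16, a nuclear DNA sensor, had 413 and 205 counts, a log2 ratio of -0.997 just inside the 2-fold size. IFI16 was past 2-fold lower with median of ratios scaling (-1.06), total count scaling (-1.004) and TMM on coding genes alone (-1.01). IRF7, an interferon regulatory factor, had 73 and 117 counts, a fold of 1.61 (interval 1.19 to 2.19).

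CD274 lies near the end of the short arm of chromosome 9, in GENCODE order between PLGRKT and RIC1 among coding genes at the count minimum. Both neighbours were slightly higher, PLGRKT with 779 parental and 1101 resistant counts (log2 ratio 0.51) and RIC1 with 479 and 690 (log2 ratio 0.54). The fold of CD274 was 2.34 times that of PLGRKT (interval 1.85 to 2.98) and 1.90 times that of ERMP1, the gene after RIC1 (interval 1.52 to 2.39). Its 10 nearest coding genes had a median log2 ratio of 0.52. Thus the stretch as a whole was modestly above the level of all genes, and CD274 stood above the genes next to it.

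Along a wider list of 31 genes of this chromosome end, 23 reached the count minimum, of which 4 were at least 2-fold higher, 2 lower and 17 within 2-fold, with a median log2 ratio of 0.46. IL33, an epithelial alarmin cytokine, had 69 parental and 2014 resistant counts, 29.4-fold higher (interval 23.1 to 37.9). SLC1A1, a glutamate transporter, had 747 and 3655 counts, 4.93-fold higher. The relaxin gene RLN1, with 31 and 64 counts, and KDM4C, a histone demethylase gene with 22 and 50 counts, were also past 2-fold. JAK2 and VLDLR, a lipoprotein receptor gene with 467 parental and 229 resistant counts, were the 2 lower genes. With the length trend removed, RLN1 (0.97) and VLDLR (-0.72) lay inside 2-fold on the log2 scale, as JAK2 did. Scaling, prior count or FPKM values also moved RLN1 and VLDLR inside 2-fold. JAK2, lower, lies between SLC1A1 and CD274, both higher.

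**Figure D2:**
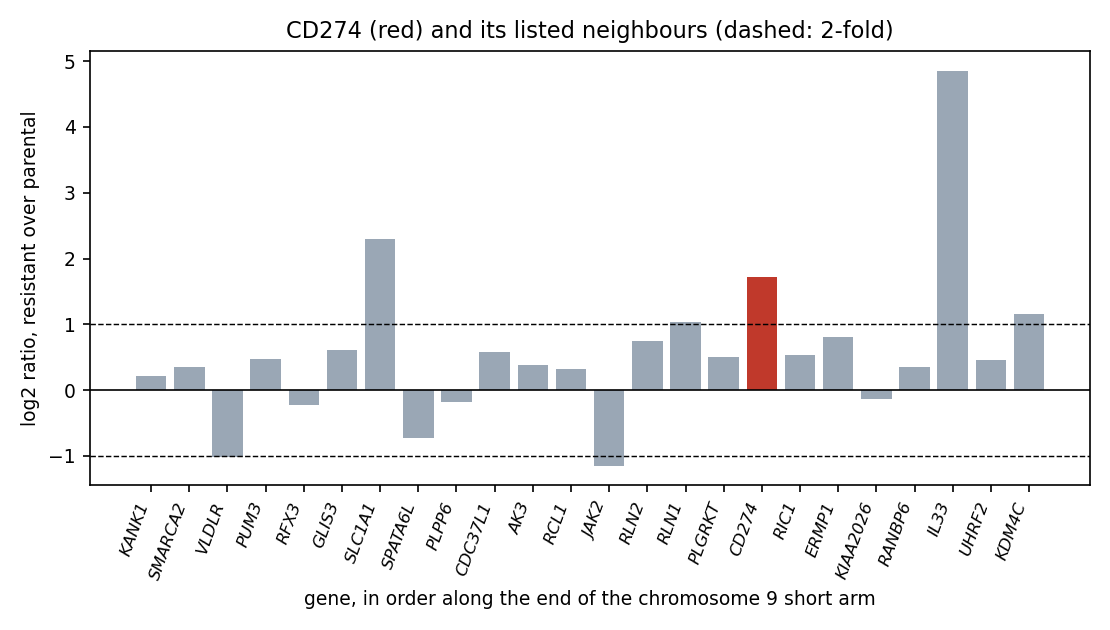
Log2 ratio of resistant over parental counts (y axis, dashed lines at 2-fold) for CD274 in red and its listed neighbours with at least 50 counts in grey, in gene order along the end of the chromosome 9 short arm (x axis). CD274 at 1.73 stands above PLGRKT at 0.51 and RIC1 at 0.54, IL33 is the tallest bar at 4.86, and JAK2 is the lowest at -1.15.

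PDCD1LG2, the gene of the second PD-1 ligand, PD-L2, lies just beyond CD274 in the same gene order. If its missing row stands for a count of 0, such a count allows up to 3 counts in a library. That is 0.0868 CPM (counts scaled to the library total) in the parental and 0.0869 CPM in the resistant library. No fold can be given. Of the pair of PD-1 ligand genes, CD274 thus had 364 counts in the resistant library and PDCD1LG2 had no row. With the counting annotation not given, a gene left out of it cannot be told from a gene without reads.

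The B7 family members CD276 and VTCN1 went different ways. CD276, which encodes B7-H3, had 117 parental and 154 resistant counts, a fold of 1.33 (interval 1.04 to 1.70), and FPKM values of 2.62 and 3.60. VTCN1, which encodes B7-H4, had 77 parental and 4 resistant counts, 19.1-fold lower (interval 7.17 to 72.0). Its log2 ratio of -3.95 was below those of 99.7% of genes at the count minimum, though the wide interval reflects the 4 counts. With 5 counts added to each library in place of 1, the log2 ratio was -3.18. All 10 coding genes at the count minimum nearest to VTCN1 were within 2-fold, from -0.54 to 0.82 on the log2 scale. Of these, TRIM45 at -0.30 and MAN1A2 at 0.35 were the nearest on its flanks. For CD276 the flanking coding genes at the count minimum were NPTN at 0.21 and STOML1 at 1.73, the latter with only 16 and 55 counts.

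In 15 other B7 and butyrophilin family genes the median log2 ratio was 0.42 over the 11 at the count minimum, of which 2 were higher, 0 lower and 9 within 2-fold. The higher genes were BTN2A2, with 40 parental and 104 resistant counts, and BTNL9, with 25 and 66. The costimulatory genes CD80 and CD86, whose products bind CD28 and CTLA-4, had 0 parental counts and 3 and 2 resistant counts. That is no more than the limit that a count of 0 allows.

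PVR and NECTIN2, which lie close together on chromosome 19, differed in opposite directions. PVR, also known as CD155, had 3092 parental and 5119 resistant counts, a fold of 1.67 (interval 1.59 to 1.74). NECTIN2, also known as CD112, had 281 and 195 counts, a fold of 0.699 (interval 0.579 to 0.842). The fold of PVR was 2.39 times that of NECTIN2 (interval 1.97 to 2.89), a quotient that no scaling between libraries can change. Per length, PVR had 1.57 times the parental and 3.75 times the resistant FPKM value of NECTIN2.

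Neighbours of these genes, taken among coding genes at the count minimum, also varied. CEACAM19, next to PVR, had 48 parental and 128 resistant counts, 2.68-fold higher, and its exons overlap 121 of 3519 exonic bases of PVR on the same strand. ZNF180 on the other side of PVR had a log2 ratio of 0.36. BCAM and TOMM40, which flank NECTIN2, had log2 ratios of -0.78 and 0.43. An antisense gene overlaps 128 of 3747 exonic bases of NECTIN2, and whether the counting used strand is not given in the sources used here. Of 6 other nectin and nectin-like genes, 4 reached the count minimum, with a median log2 ratio of -0.27. NECTIN1, an adherens junction protein, had 31 parental and 97 resistant counts, 3.15-fold higher (interval 2.08 to 4.88). CADM4, a cell adhesion gene, had 178 and 85 counts, 2.08-fold lower, and with upper quartile scaling lay inside 2-fold at -0.98 on the log2 scale, and by FPKM at -0.99.

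The 3 NKG2D ligands were all above a ratio of 1, by unequal amounts. ULBP2 had 644 parental and 1232 resistant counts, a fold of 1.93 (interval 1.75 to 2.12). MICB had 545 and 980 counts, a fold of 1.81 (interval 1.63 to 2.01). MICA had 660 and 774 counts, a fold of 1.18 (interval 1.06 to 1.31). ULBP2 and MICB could not be told apart, the fold of ULBP2 being 1.06 times that of MICB (interval 0.921 to 1.23). Against MICA, the fold of MICB was 1.53 times as large (interval 1.32 to 1.78) and that of ULBP2 1.63 times (interval 1.41 to 1.88). Upper quartile scaling put ULBP2 past 2-fold, at a log2 ratio of 1.02.

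MICA and MICB lie side by side in the HLA region of chromosome 6. Their promoters are shown because the windows of these related genes can be aligned, with 85.0% identity over 246 aligned bases. The windows are 250 bases before the RefSeq starts in GRCh38.p14, plus strand, chr6:31403345-31403594 for MICA and chr6:31497895-31498144 for MICB. Capitals mark the heat shock element core GAANNTTC, which reads the same on both strands, and the CCAAT box, as CCAAT or its reverse ATTGG. These motifs do not overlap each other here.

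MICA: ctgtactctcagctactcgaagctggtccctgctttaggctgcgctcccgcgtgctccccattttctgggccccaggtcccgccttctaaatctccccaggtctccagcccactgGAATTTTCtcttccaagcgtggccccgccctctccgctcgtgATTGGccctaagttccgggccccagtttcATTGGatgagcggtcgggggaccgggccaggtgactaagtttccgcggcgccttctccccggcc
MICB: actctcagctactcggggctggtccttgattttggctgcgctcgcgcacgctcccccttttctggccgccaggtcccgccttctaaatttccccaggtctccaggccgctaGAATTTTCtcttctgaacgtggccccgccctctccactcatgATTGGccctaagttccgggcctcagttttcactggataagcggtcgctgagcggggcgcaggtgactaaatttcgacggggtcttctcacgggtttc

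The heat shock core stands 135 bases before the start in MICA and 139 in MICB, and 5.80% of all promoter windows hold it. ATTGG occurs 93 and 64 bases before the start of MICA and 97 bases before that of MICB, while 32.0% of windows hold a CCAAT box on either strand. Among the 9 ligands with an entry, MICA and MICB were the 2 with the heat shock core. The heat shock core is thus in both windows, while ATTGG at 64 bases before the start was found in MICA and not in MICB. Whether these letters bear on the ratios of 1.18 and 1.81 was not tested.

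For the transcripts only exact 50-base stretches were compared, which cannot be set against the identity of the promoters. Of the distinct 50-base stretches of MICA, 2.64% recur in another gene, and of MICB 2.94%, the 2 genes sharing 45 such stretches with each other. For ULBP2 the share was 32.2%, mostly with RAET1L (29.4%) and RAET1G (11.6%), so part of its counts could belong to those genes or theirs to it. RAET1L itself had 52 parental and 66 resistant counts and RAET1G 28 and 22, far fewer than ULBP2.

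The other NKG2D ligand genes were weakly expressed. Of 5, 4 reached the count minimum and all 4 were within 2-fold, with a median log2 ratio of 0.26. ULBP1 had 239 parental and 129 resistant counts, a fold of 0.543 (interval 0.435 to 0.676), opposite in direction to ULBP2 beside it on chromosome 6. RAET1E, the nearest coding gene at the count minimum on the other flank, had 58 and 94 counts, a fold of 1.63. RAET1G did not reach that minimum and so could not be taken as a neighbour. Summed over all 8 NKG2D ligand genes, the parental FPKM value was 16.0 and the resistant one 24.9. ULBP2 made up 33.6% of the parental and 43.1% of the resistant sum.

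A list of genes that act in the shedding of NKG2D ligands from the cell surface held 5 at the count minimum, all within 2-fold. Their median log2 ratio of -0.59 is the value of PDIA6, a disulfide isomerase, and the other 4 are proteases. ADAM17, a sheddase of MICA and MICB, had 4708 parental and 2917 resistant counts, a fold of 0.624. ADAM10 had 8723 and 5516 counts, a fold of 0.637. ADAM9, the most counted gene of the list, had 40734 and 54746 counts, a fold of 1.35 (interval 1.34 to 1.37), and MMP14 had 1581 and 1353, a fold of 0.861. The proteases thus did not differ in 1 direction. With the length trend removed, ADAM17 was at -0.36 and ADAM10 at -0.19 on the log2 scale.

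CD47, the ligand of SIRPA, had the most counts of the 9 genes, 17916 parental and 8357 resistant. Its resistant count was 2.13-fold lower (interval 2.08 to 2.19), a log2 ratio of -1.09. With the trend of ratios with gene length removed, the log2 ratio was -0.87, inside the 2-fold size. Little of CD47 is shared with other genes, 0.132% of its 50-base stretches.

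Genes on both sides of CD47 on chromosome 3 were past 2-fold lower as well. BBX, the nearest coding gene at the count minimum before it, had 4908 parental and 2010 resistant counts, 2.43-fold lower. With the length trend removed, BBX was at -0.96 on the log2 scale and inside 2-fold. IFT57, the nearest after it, had 4448 and 1330 counts, 3.32-fold lower. The 10 nearest coding genes had a median log2 ratio of -0.78, with 4 lower, 1 higher and 5 within 2-fold. CD47 at -1.09 thus differed in the same direction as BBX at -1.28 and IFT57 at -1.73, and by less than either. CD274 at 1.73 also went the same way as PLGRKT at 0.51 and RIC1 at 0.54, and by more than either. VTCN1 at -3.95 lay below TRIM45 at -0.30 and MAN1A2 at 0.35. Whether any of these differences belongs to a region or to a gene was not tested.

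Of 6 genes for CD47 partners and its modification, 1 was higher, 1 lower and 4 within 2-fold, with a median log2 ratio of 0.24. QPCT, a glutaminyl cyclase related to QPCTL, the enzyme that modifies CD47 for SIRPA binding, had 135 parental and 275 resistant counts, 2.05-fold higher, or 0.89 on the log2 scale and inside 2-fold with the length trend removed, and 0.97 with median of ratios scaling. QPCTL had 164 and 217 counts. LRP1, an endocytic receptor that binds the CD47 ligand thrombospondin, had 1658 and 364 counts, 4.52-fold lower (interval 4.04 to 5.08). THBS1, which encodes thrombospondin 1, had 1857 and 2700 counts, a fold of 1.46.

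A further list held inhibitory or adhesive ligands outside these families. Of its 14 genes, 11 reached the count minimum, of which 2 were lower, 0 higher and 9 within 2-fold, with a median log2 ratio of -0.41. LGALS9, whose product galectin-9 binds TIM-3, had 283 parental and 55 resistant counts, 5.11-fold lower (interval 3.82 to 6.95). CEACAM1, an inhibitory adhesion receptor of epithelial and immune cells, had 951 and 269 counts, 3.51-fold lower (interval 3.06 to 4.04). HLA-E, the ligand of the inhibitory receptor NKG2A, had 4538 and 3176 counts, a fold of 0.705, and reads of HLA genes can be shared among them.

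**Figure D3:**
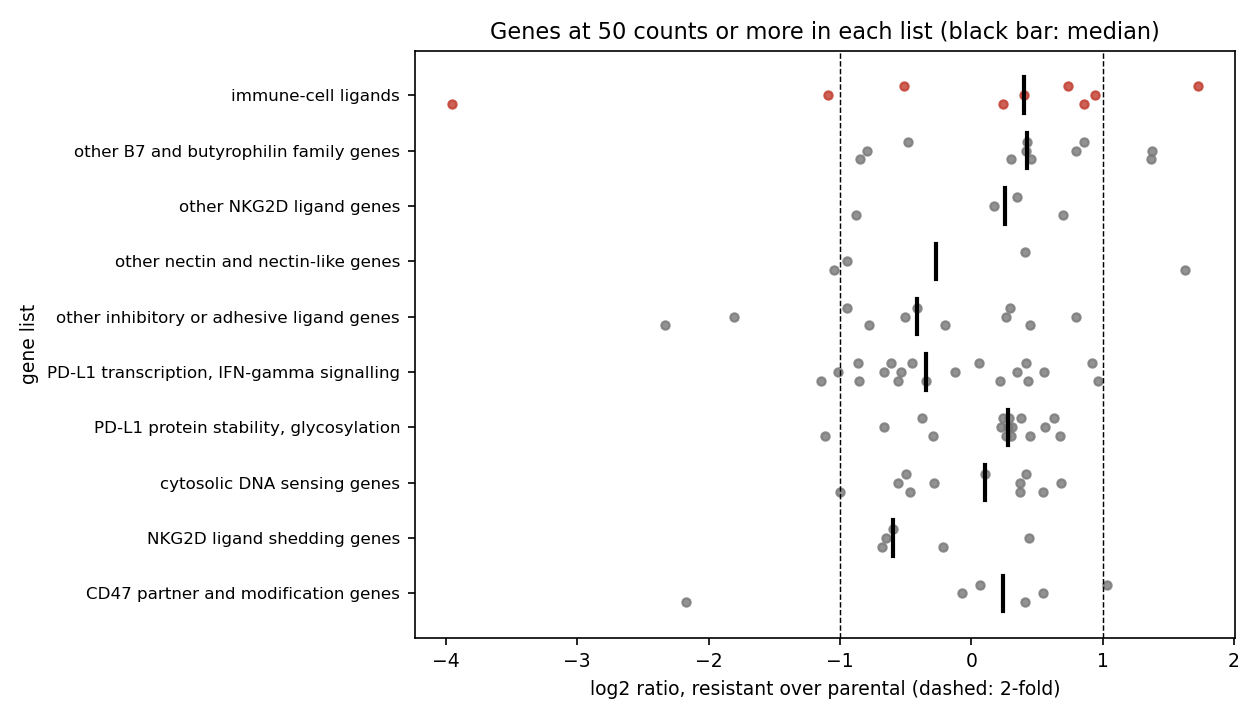
Log2 ratio of resistant over parental counts (x axis, dashed lines at 2-fold) of each gene with at least 50 counts, by list (y axis), with the immune-cell ligands in red and a black bar at each list's median. The ligands spread from -3.95 to 1.73 around a median of 0.40, and the list of PD-L1 transcription and interferon gamma signalling genes has its median at -0.35 with 0 genes past 2-fold higher.

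Set side by side per length, the ligands changed order between the libraries. In the parental library the FPKM values ran from CD47 at 29.7 through PVR at 11.0, NECTIN2 at 7.005, ULBP2 at 5.38, MICA at 5.37, CD276 at 2.62 and MICB at 2.51 to CD274 at 0.371 and VTCN1 at 0.332. In the resistant library PVR came first at 19.0, then CD47 at 14.5, ULBP2 at 10.7, MICA at 6.56, NECTIN2 at 5.07, MICB at 4.71, CD276 at 3.60, CD274 at 1.28 and VTCN1 at 0.018. CD47 and PVR thus exchanged the first place, and the FPKM value of PVR went from 0.370 to 1.31 times that of CD47. Neighbours whose counting intervals overlapped were ULBP2 with MICA, CD276 with MICB, and CD274 with VTCN1 in the parental library, and NECTIN2 with MICB in the resistant library.

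**Figure D4:**
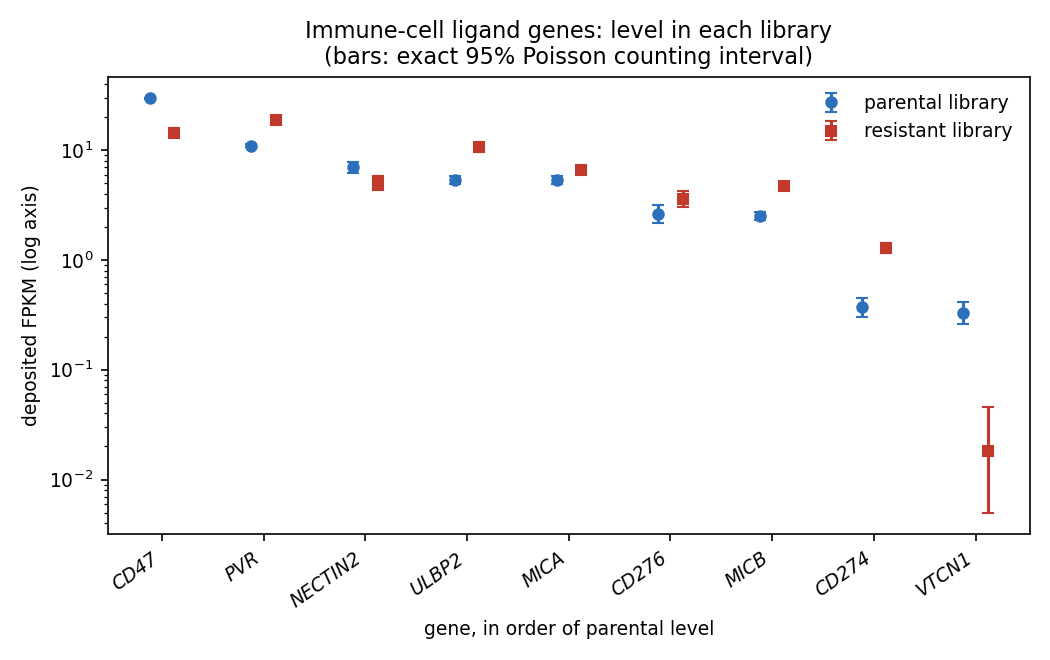
Deposited FPKM value (y axis, log scale) of the 9 ligand genes with a row, in order of parental level (x axis), with parental values as blue circles, resistant values as red squares and exact 95% Poisson counting intervals as bars. CD47 is lower and PVR higher in the resistant library, which exchanges their places, and VTCN1 goes from 0.332 to 0.018.

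The lengths behind these FPKM values were not uniform. A length was implied by the count, FPKM and total of the parental library. It was 2.09 times the GENCODE exonic length for CD274 and 2.12 times for CD47, but 0.233 times for CD276 and 0.310 times for NECTIN2. In the remaining ligands it ran from 1.49 times for MICA to 2.57 times for ULBP2. Over 12136 coding genes the quotient had a median of 0.834. The low counts of CD276 and NECTIN2 therefore go with a short length in the authors' calculation, and the other ligands were given long ones. The order of levels, the FPKM rank of CD274 among genes and the NKG2D ligand sums rest on these lengths. Count ratios between libraries do not use them.

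**Figure D5:**
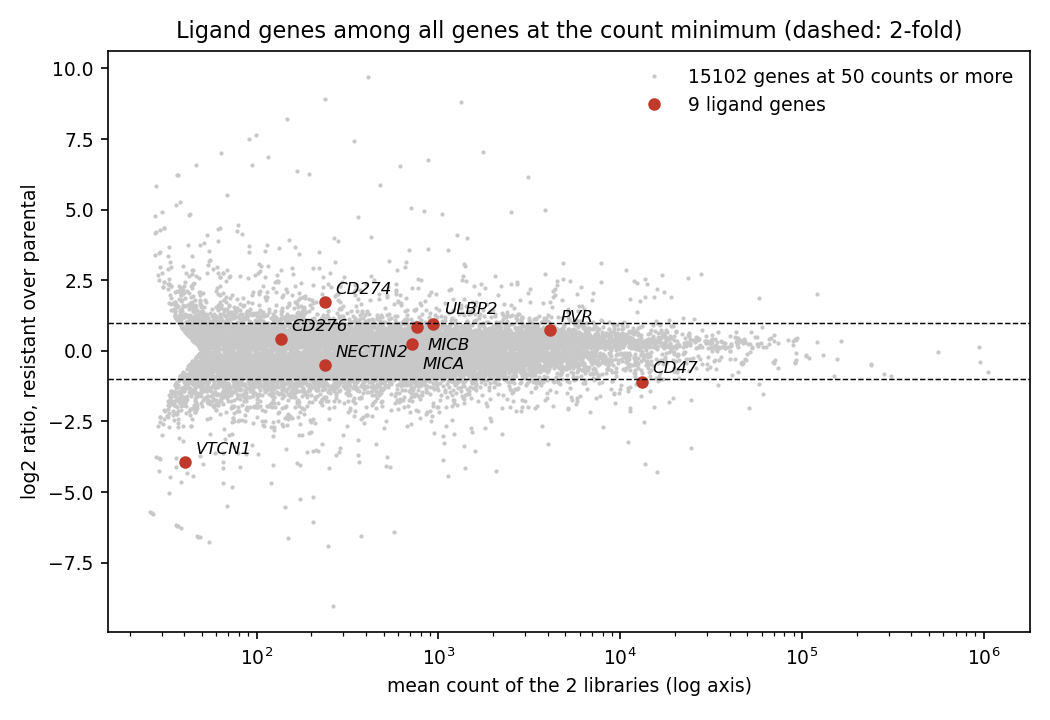
Log2 ratio of resistant over parental counts (y axis, dashed lines at 2-fold) against the mean count of both libraries (x axis, log scale), with the 15102 genes at 50 counts or more in grey and the 9 ligand genes in red. CD274 lies above and VTCN1 below the main cloud at low counts, and CD47 lies at its lower edge among strongly counted genes.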

How the data were processed

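The deposited table gives a count and an FPKM value per Ensembl gene and library, per the file headers. The counts deposited by the authors are whole numbers without normalization. RSEM 1.2.3 and hg19 are named, without a role, per the submitters' processing notes. Whether the counts are rounded estimates, and with which annotation and strand setting, is not given in the sources used here. The FPKM values deposited by the authors were used as levels per length. Total RNA was extracted with Trizol and made into strand-specific libraries, per the labels' protocols.

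Library scaling used the TMM method (edgeR 4.0.16, R 4.3.3), and a prior of 1 count was added to each library. Tables were handled with pandas 2.3.3 and numpy 2.4.6, intervals with scipy 1.17.1 and plots with matplotlib 3.10.9, under Python 3.11.15. A gene was called at 50 counts or more in the higher library and a 2-fold ratio. Calculations were tested on simulated data. Symbols came from a gene name table and GENCODE release 29, which describes another build and served for order, exonic length and shared stretches only, so no gene coordinates are given. Promoters are from RefSeq.

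The ligands, gene lists and settings were chosen with earlier results of these data known. The genes named are the ligands, JAK2, IRF1 and CMTM6, and up to 6 called genes per list (otherwise the 2 largest ratios). Also named are the nearest coding genes at the count minimum on each side of a ligand. One gene that the rule names is not reported here. Other genes, and the pairs whose folds were divided, were chosen after their values were seen. Of the marker list of epithelium and pancreatic duct, 9 of 10 reached the minimum, with CFTR and MUC1 lower (8946 and 2563, and 3572 and 1399, parental and resistant counts).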

Additional observations from a re-analysis of the deposited data

How the results depend on the processing

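No paired analysis was possible because each group has 1 library. CD274 kept its direction and stayed past 2-fold under all 11 alternatives run, with log2 ratios from 1.66 to 1.80. Of 97 values of the ligands under the alternatives, 0 changed sign and 2 crossed the 2-fold size. These were ULBP2 under upper quartile scaling (1.02) and CD47 with the trend with gene length removed (-0.87), an alternative chosen after seeing the data. Of the 97, 6 lay outside the gene's counting interval, all of CD47 (-1.15 to -0.87 over the alternatives) or PVR (0.66 to 0.81). Those intervals thus leave out the choice of processing. The ligands' median ranged from 0.34 to 0.74. Upper quartile scaling gave 2 ligands at least 2-fold higher. A minimum of 200 counts, which VTCN1 does not reach, left 1 lower, as did removal of the length trend. At a size of 1.5-fold, 6 ligands differed, 4 of them higher, where 38.1% of all genes differed. Of the listed genes, 18 differed at least 2-fold, against 28 with a minimum of 10 counts, 39 with none and 50 at 1.5-fold, as those settings imply. Among 450 values of the other genes that the naming rule picked, 0 changed sign and 22 lay outside the counting interval. Of the 450, 19 values, from 9 genes, crossed 2-fold. Without the length trend these were JAK2 (-0.98), STAT2 (-0.85), ZDHHC3 (-0.94), QPCT (0.89), RLN1 (0.97), VLDLR (-0.72) and BBX (-0.96). STAT2, VLDLR and CADM4 also came inside 2-fold under upper quartile scaling (-0.95, -0.94 and -0.98) and by FPKM (-0.97, -0.96 and -0.99), QPCT and RLN1 under median of ratios scaling (0.97 each), and RLN1 with a prior of 5 counts (0.95). IFI16 went past 2-fold lower under median of ratios scaling (-1.06), total count scaling (-1.004) and TMM on coding genes alone (-1.01). The cause was not tested. The median over all genes shifted by at most 0.07 under any scaling. Depth limits VTCN1 most, at 4 resistant counts.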
